A study of Danio rerio with 9 samples.

Results

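Crystallins are the soluble proteins that fill the fibre cells of the vertebrate lens. The members described here are the 56 rows of the deposited gene table whose name begins with cryaa, cryab, cryba, crybb or cryg, out of 28802 rows in all. They comprise 3 alpha, 13 beta and 40 gamma crystallins. The RNA came from whole larvae of the zebrafish, Danio rerio, collected 8 days after fertilization. There are 9 libraries, each from total RNA of 7 larvae. The 3 wild-type libraries are named after the AB line in the deposited table. The 3 single-mutant libraries came from larvae homozygous for the stl700 allele of fam177a1a. The 3 double-mutant libraries came from larvae homozygous for both stl700 and the stl746 allele of fam177a1b, so both mutant genotypes carried stl700.

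The alleles were present in every cell and the lens was not dissected, so each value is an average over the whole body. Clutch, day and hour of collection are not given, and the p-values measure only the spread between these libraries. Genotype is the only factor that the labels name. Any difference in line background between wild-type and mutant larvae could not be told apart from genotype. In such bulk RNA, fewer lens cells and less RNA per lens cell cannot be told apart.

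Alpha crystallins are small heat shock proteins that hold unfolding proteins in solution, and cryaa is made mainly in the lens. Beta and gamma crystallins share a fold of Greek key motifs and act as structural proteins that set the refractive index. Beta crystallins assemble into oligomers and gamma crystallins remain monomers. Gamma M crystallins are rich in methionine and are abundant in the dense, hard lenses of fish.

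Total counts per library ran from 18297048 to 24717581 in wild type, from 17175936 to 18256978 in single mutants and from 16978591 to 19276480 in double mutants. The row named fam177a1, which serves as a check of wild-type against mutant labels, was counted 669, 490 and 487 times in wild type. Its counts were 8, 14 and 11 in single mutants, against 15, 9 and 8 in double mutants. The row therefore cannot check single-mutant against double-mutant labels. Single-mutant replicate 1 stood apart from its own group: its correlation with the double-mutant libraries across genes (Pearson's r 0.979 to 0.983, log2 values) was above that with the other single mutants (0.978 with each). Calls of named crystallin rows that turn on it are given with and without it. For genes of the other lists, calls without this library are not given.

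Levels are given as CPM, the usual depth-normalised count, on library totals scaled by edgeR's TMM factors. Crystallin RNA made up 0.744% of wild-type counts, 0.698% of single-mutant counts and 0.717% of double-mutant counts. Summed over the 56 rows, the level was 7510, 7780 and 6583 CPM in wild type, 6922, 7153 and 7207 CPM in single mutants, with 7019, 7538 and 7100 CPM in double mutants. The mutant libraries lay within the wild-type range, whose lowest value was that of replicate 3. The means were 7291 ± 628, 7094 ± 151 and 7219 ± 279 CPM (SD, n = 3), and the mutants differed from wild type by less than the spread between wild-type libraries. Whether the total was above or below wild type turned with the scaling in double mutants, with a log2 ratio of -0.01 under TMM and at most 0.01 under the other scalings.

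Within that total, the counted share of gamma crystallins was lower and that of beta crystallins higher in both mutant genotypes. Beta crystallins took 53.5%, 53.5% and 55.3% of the crystallin counts in wild type, 56.04%, 56.3% and 56.6% in single mutants, with 56.3%, 55.98% and 56.2% in double mutants. Every mutant library lay above every wild-type library. In level, 22.6% of all tested genes lay so in single mutants and 22.8% in double mutants. The shares do not depend on how libraries are scaled. They may depend on how reads matching several near-identical gamma copies were counted, which is not given. Gamma crystallins took 45.6 ± 1.05% in wild type, 43.4 ± 0.223% in single mutants, beside 43.5 ± 0.162% in double mutants (SD, n = 3). Most of the gamma share belonged to the 20 crygm2d rows, which held 35.5 ± 1.07%, 32.5 ± 0.338% and 32.7 ± 0.183% of crystallin counts. Alpha crystallins held 0.245%, 0.314% and 0.339%. No p-value is attached to these shares, because they are scores over the chosen rows.

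On the CPM scale, summed beta crystallin RNA was 3942 ± 269 in wild type, 3996 ± 104 in single mutants and 4055 ± 144 in double mutants. Summed gamma crystallin RNA was 3331 ± 358, 3076 ± 50.3 and 3140 ± 133 CPM, which placed the mutant means 7.67% and 5.75% below wild type. By library, the gamma sum was 3471, 3598 and 2924 CPM in wild type, 3018, 3099 and 3111 CPM in single mutants, with 3042, 3291 and 3086 CPM in double mutants. Wild-type replicate 3 fell below all mutant libraries, and the groups therefore overlapped.

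**Figure D1:**
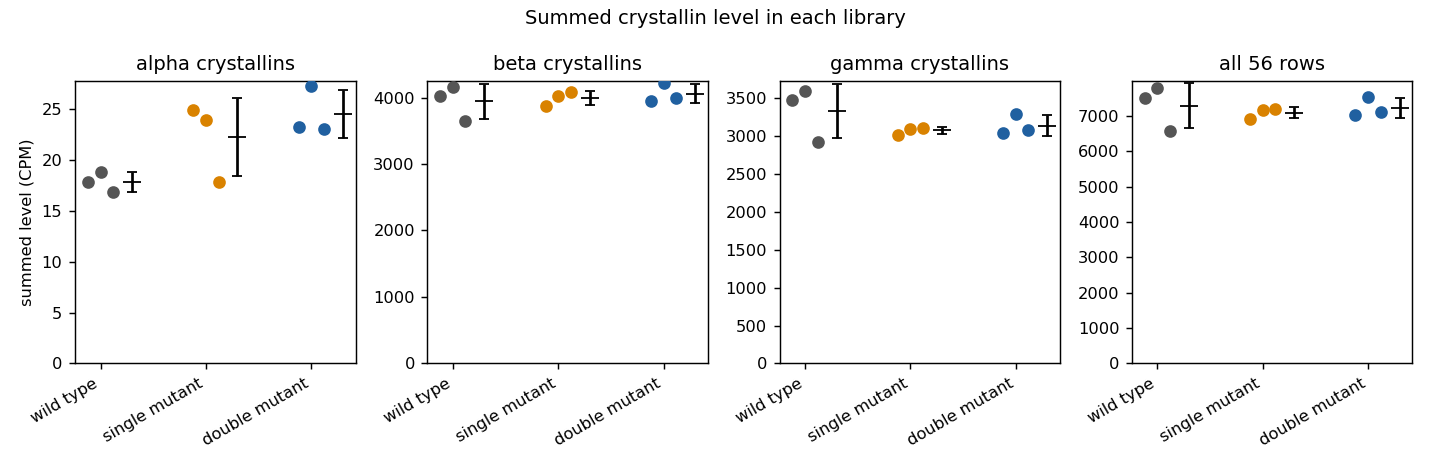
Summed level (CPM, vertical axes starting at 0) of the alpha, beta, gamma and all crystallin rows in each library, with the genotype mean and SD (n = 3). Wild-type replicate 3 was the lowest library in each of the 4 panels.

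Among the rows, the structural crystallins of the fibre cell dominated. Compared per kilobase of row length in wild type, 22 rows reached 100 CPM per kilobase, of which 8 were beta, 14 gamma and none alpha. The highest was crybb1 at 575 ± 47.3 CPM per kilobase, followed by the gamma N crystallin crygn2 at 383 ± 25.9, crygm2d13 at 337 ± 42.4 and crygm2d8 at 287 ± 27.3. In that order, crygn2 and crygm2d13 did not differ beyond their spread, nor did crygm2d13 and crygm2d8. The order depends on the deposited row lengths, such as 4211 bases for crybb1l1 and 1010 for crybb1. In CPM without this scaling, crybb1l1 was highest in wild type, at 771 ± 26.6 against 581 ± 47.7 for crybb1. The 10 rows with most counts held 63.0% of the crystallin counts in wild type. At the other end, 15 rows were under 1 CPM per kilobase.

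The alpha crystallin cryaa reached 11.8 ± 0.717 CPM per kilobase in wild type, below those abundant beta and gamma rows. Its relative cryabb reached 0.422 ± 0.0777. Paralogues could lie far apart in level. Beside crybb1l2 at 217 ± 18.1 CPM per kilobase, cryba1l2, which lies near it on the chromosome, stood at 7.23. Beside crygn2, its relative crygn1 stood at 9.76.

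**Figure D2:**
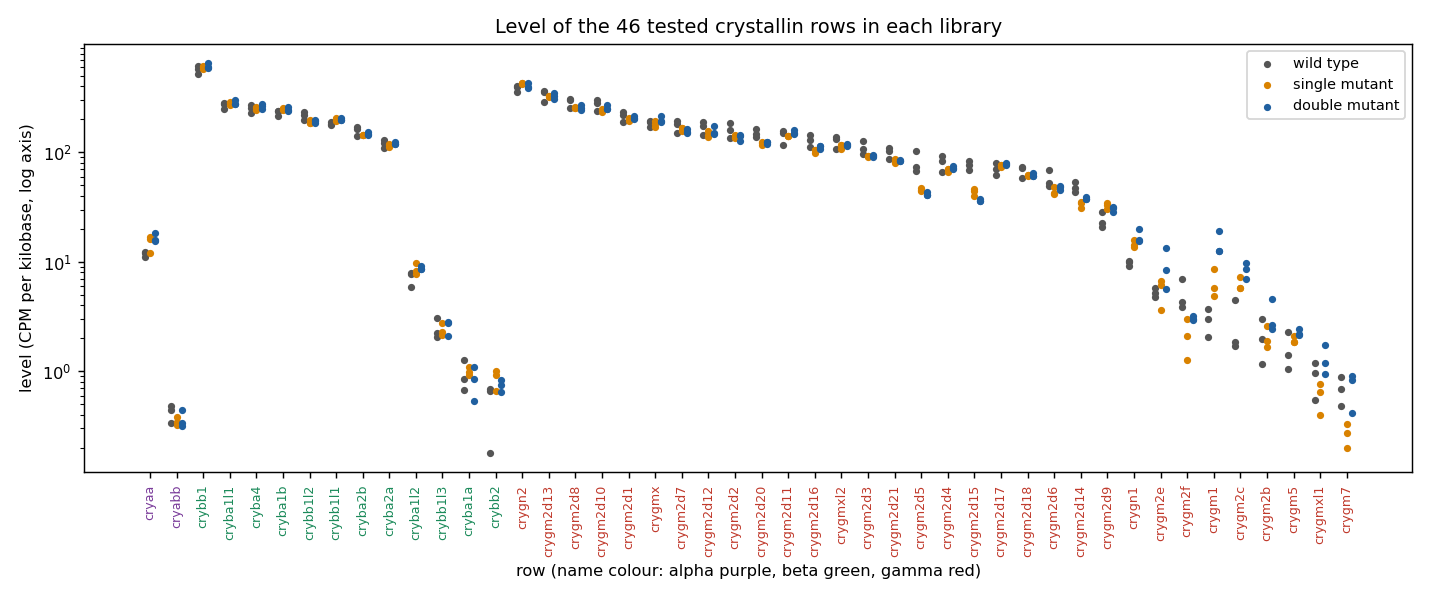
Level of each of the 46 tested crystallin rows per kilobase (CPM per kilobase, log axis) in the 3 genotypes, ordered within alpha, beta and gamma crystallins. Abundant beta and gamma rows exceeded 100 CPM per kilobase, while cryaa was at 11.8 in wild type.

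A filter on low counts (0.548 CPM, equal to 10 counts at the median depth) kept 46 of the 56 rows, namely 2 alpha, 12 beta and 32 gamma crystallins. Of these, 43 were above that level in all 9 libraries, and crybb2, crygm7 and crygmxl1 were not. The other 10 rows, with 2 to 70 counts summed over all libraries, were cryaba, crybb3, crygm2a, crygm3, crygm4, crygm6 and crygs1 to crygs4. The alpha crystallin cryaba had 0, 2 and 1 counts in wild type, 0, 1 and 0 in single mutants, with 0, 1 and 2 in double mutants, so its level was not measurable at this depth. For scale, 3 counts corresponded to 0.121 to 0.178 CPM. The gamma S row crygs4 had 0, 6 and 9 counts in wild type, 1, 1 and 0 in single mutants, with 0, 0 and 0 in double mutants.

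Rows were called at an adjusted p under 0.05 by edgeR's quasi-likelihood test, with Benjamini-Hochberg adjustment over all 21694 tested genes. Mutant and wild-type larvae differed in many genes, so the counts of crystallins are read against that background. In single mutants, 16 of the 46 tested crystallins changed (34.8%), where 42.0% of all tested genes did. Of the 16, 5 rose (10.9%) and 11 fell (23.9%), beside 19.5% and 22.6% of all genes. In double mutants 11 changed (23.9%), where 32.2% of all tested genes did, with 5 that rose (10.9%) and 6 that fell (13%), beside 14.2% and 18.0%. With all 9 libraries, the share called was below the background in both comparisons. The 11 lower rows include crygm7, which was above the filter level in no single-mutant library and was tested only through the other genotypes. In single mutants all 3 libraries lay above wild type in 7 of the 46 rows and below it in 11, where 22.6% and 26.5% of all tested genes did so. In double mutants these counts were 8 and 8, beside 22.8% and 27.3% of all tested genes.

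These counts depended on 1 wild-type library, on the scaling and on the filter. Without wild-type replicate 3 the single mutants had 4 rows called higher and 21 lower, beside 3589 and 4312 of 21919 tested genes. Double mutants had 4 higher and 14 lower, beside 2568 and 3368. The share of crystallins called was then above that of all tested genes in both comparisons. With TMM factors computed without the crystallin rows, single mutants had 7 higher and 8 lower, beside 4656 and 4395 of 21694 tested genes. Double mutants had 6 and 5, beside 3367 and 3592. A stricter filter on low counts, with the crystallin rows left in the scaling, gave the same splits of crystallins. The shift is therefore not particular to leaving out the crystallin rows. Both comparisons use the same wild-type libraries, so they are not independent of each other.

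By family, 1 of the 2 tested alpha crystallins rose in each mutant. Of the 12 tested beta crystallins, 1 fell in single mutants (8.33%) and 0 were called in double mutants by edgeR, where 3 had an unadjusted p under 0.05. Of the 32 tested gamma crystallins, 4 rose and 10 fell in single mutants (43.8% called, beside 42.0% of all tested genes). The 10 include crygm7, which was tested only through the other genotypes. In double mutants 4 rose and 6 fell (31.2% called, beside 32.2%). Of the 24 gamma rows with a mean of at least 10 CPM, 2 rose and 8 fell in single mutants. Of such genes, 22.6% rose and 28.4% fell. In double mutants 2 of the 24 rose and 6 fell, beside 16.1% and 23% of such genes. The median log2 fold change of the gamma rows was -0.16 in single and -0.10 in double mutants, and that of the beta rows 0.07 and 0.08. Across all tested genes the median was -0.01 in each. The signs of the beta and gamma medians were the same under all 5 scalings tried, including one that scaled each library to its summed crystallin counts. Without wild-type replicate 3, the beta median in single mutants was -0.04. The difference between the families' counts was not tested.

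**Figure D3:**
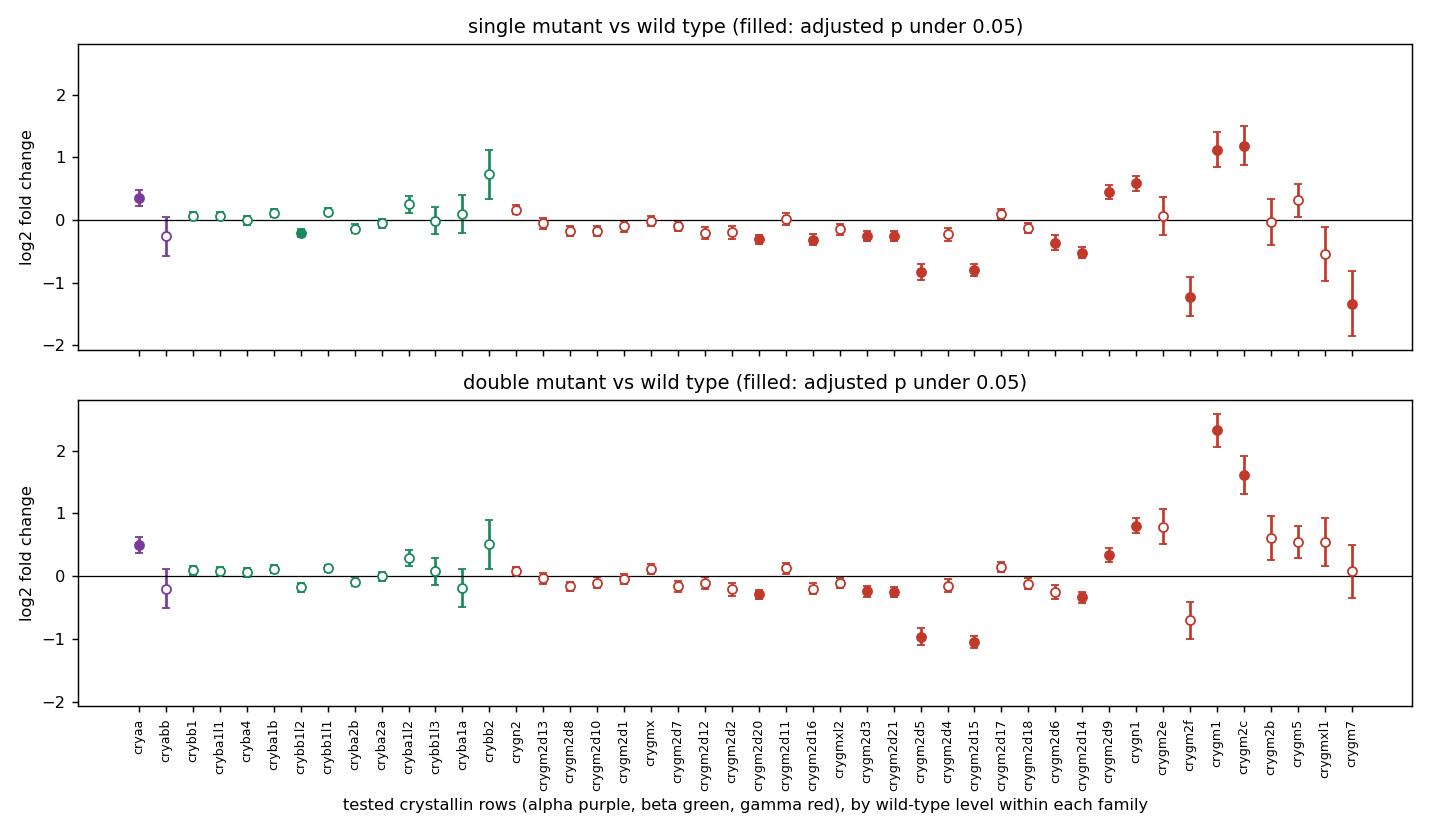
Log2 fold change (point) with its SE (bar) of the 46 tested crystallin rows against wild type, single mutants in one panel and double mutants in the other, with called rows marked. Gamma rows ranged from -1.33 to 1.19 in single mutants and from -1.06 to 2.32 in double mutants. The -1.33 belonged to crygm7, a row of few counts that was tested only through the other genotypes.

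The alpha crystallin cryaa, a chaperone of the lens, rose in both mutants. Its level was 16.97, 17.5 and 15.6 CPM in wild type, 24.0, 22.9 and 17.02 CPM in single mutants, with 22.4, 26.0 and 22.1 CPM in double mutants. All double-mutant libraries lay above wild type, while single-mutant replicate 3 lay within the wild-type range. The rise was 1.41-fold in double mutants (log2 0.49, SE 0.12, edgeR adjusted p = 0.00672) and 1.28-fold in single mutants (log2 0.35, SE 0.13, edgeR adjusted p = 0.0332). The call in double mutants held in all 19 alternatives tried. That in single mutants was lost in 5 of the 19. One was the fit of the 6 compared libraries alone (log2 0.36, edgeR adjusted p = 0.0554). The others each left out 1 library, with an adjusted p of 0.0530 (wild-type replicate 2), 0.113 (wild-type replicate 3), 0.0893 (single-mutant replicate 1) or 0.0801 (single-mutant replicate 2).

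The broadly expressed paralogue cryabb stood at 0.887, 1.17 and 1.29 CPM in wild type, 0.916, 1.01 and 0.857 CPM in single mutants, with 0.890, 1.17 and 0.837 CPM in double mutants. These ranges overlapped, and its log2 differences of -0.26 (SE 0.31) and -0.20 (SE 0.31) did not pass the test (edgeR adjusted p = 0.538 and 0.662).

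Among beta crystallins, crybb1l2, a relative of the basic beta B1 crystallin, was the single row called. It measured 595, 628 and 532 CPM in wild type, 495, 498 and 528 CPM in single mutants, with 505, 529 and 516 CPM in double mutants. Every mutant library lay below every wild-type library. The row was 13.3% lower in single mutants (log2 -0.21, SE 0.07, edgeR adjusted p = 0.0224), while in double mutants the log2 difference of -0.18 had an adjusted p of 0.0524. The row was called in double mutants without wild-type replicate 3 (log2 -0.24, adjusted p = 0.00765) and without single-mutant replicate 1 (log2 -0.18, adjusted p = 0.0375). The call in single mutants was lost in 13 of 19 alternatives, among them leaving out wild-type replicate 1 or 2, single-mutant replicate 2 or 3 or any double-mutant library (adjusted p = 0.0578 to 0.140).

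The 3 beta rows with the highest level per kilobase over all libraries were not called. For crybb1 the levels were 581 ± 47.7, 607 ± 19.2 and 619 ± 32.5 CPM in wild type, single and double mutants, with overlapping libraries. For the acidic beta crystallin cryba4 they were 456 ± 41.2, 454 ± 15.2 and 476 ± 20.9 CPM, and for cryba1l1 508 ± 33.5, 532 ± 16.5 and 535 ± 27.5 CPM. The beta rows had a median SE of 0.07 on the log2 scale, the smallest of the families, so shifts of a few percent were within the error of these libraries.

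Some beta rows lay above all wild-type libraries without passing the test. The row crybb1l1 had 772, 797 and 744 CPM in wild type, 815, 868 and 853 CPM in single mutants, with 827, 862 and 835 CPM in double mutants. Its log2 difference was 0.13 in each mutant (edgeR adjusted p = 0.0744 and 0.105). The beta A row cryba1l2 had 13.3, 13.7 and 10.2 CPM in wild type, 13.2, 16.8 and 14.3 CPM in single mutants, with 14.8, 15.8 and 14.8 CPM in double mutants. Double mutants did not overlap wild type, and its log2 differences of 0.25 and 0.29 had adjusted p of 0.137 and 0.102. It was called in single mutants without single-mutant replicate 1 (log2 0.32, adjusted p = 0.0470) and in double mutants with the 6 compared libraries alone (log2 0.30, adjusted p = 0.0415). The highest fitted differences of the family belonged to a row of small counts, crybb2, which at 0.748 ± 0.417 CPM in wild type, differed by 0.73 (SE 0.39) and 0.51 (SE 0.40) on the log2 scale, neither called. For cryba1a, at 1.85 ± 0.596 CPM, the differences were 0.09 and -0.18, and for crybb1l3, at 3.17 ± 0.681 CPM, -0.01 and 0.08.

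The beta A rows of intermediate level also overlapped or stayed under the threshold. The row cryba2b stood at 295 ± 26.5 CPM in wild type, 268 ± 1.93 CPM in single and 277 ± 8.47 CPM in double mutants, and was called lower in single mutants without wild-type replicate 3 (log2 -0.21, adjusted p = 0.0157). The row cryba2a stood at 205 ± 16.3, 197 ± 6.29 and 205 ± 4.57 CPM. In both rows the mutant libraries overlapped the wild-type range. The row cryba1b lay above wild type in all mutant libraries, at 523 ± 31.5, 563 ± 12.9 and 563 ± 24.2 CPM, with a log2 difference of 0.11 in each mutant (edgeR adjusted p = 0.193 and 0.215).

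Among crystallins with a mean of at least 10 CPM, the largest decreases were in the crygm2d series of gamma M crystallins, a set of closely related copies. Of the 20 crygm2d rows, all tested, 8 fell and 1 rose in single mutants (45.0% called), and 6 fell and 1 rose in double mutants (35.0% called). Taken over both directions, 42.0% and 32.2% of all tested genes were called. That reference includes genes of low level, whereas the crygm2d rows had means of 27.2 CPM or more. Genes with a mean of at least 10 CPM were called more often than all tested genes. By direction, 40% fell and 5% rose in single mutants, beside 28.4% and 22.6% of genes with a mean of at least 10 CPM. In double mutants 30% fell and 5% rose, beside 23% and 16.1% of such genes. These differences were not tested. Treatment of reads that match several copies is not given in the sources used here. The values of single copies are therefore uncertain, and reads may have moved between them or been left out. The summed share of the series is uncertain for the same reason.

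The row crygm2d15 measured 47.4, 52.4 and 42.6 CPM in wild type, 27.9, 28.7 and 24.9 CPM in single mutants, with 22.4, 22.5 and 23.5 CPM in double mutants. The genotypes did not overlap, with double mutants lowest. It was 42.7% lower in single mutants (log2 -0.80, SE 0.09, edgeR adjusted p = 1.13e-05) and 51.9% lower in double mutants (log2 -1.06, SE 0.10, edgeR adjusted p = 1.40e-06). Between double and single mutants its log2 difference of -0.25 did not pass the test (edgeR adjusted p = 0.188).

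The row crygm2d5 measured 62.1, 95.7 and 68.0 CPM in wild type, 41.1, 42.3 and 43.7 CPM in single mutants, with 37.8, 37.7 and 40.3 CPM in double mutants. Wild-type replicate 2 was the highest, and all mutant libraries lay below all wild-type libraries. The decrease was 43.7% in single mutants (log2 -0.83, SE 0.13, edgeR adjusted p = 0.000262) and 48.7% in double mutants (log2 -0.96, SE 0.13, edgeR adjusted p = 0.000137). The calls of crygm2d15 and crygm2d5 in both mutants held in all 19 alternatives.

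Smaller decreases were seen in crygm2d14 and crygm2d20. The level of crygm2d14 was 72.4, 82.1 and 66.5 CPM in wild type, 47.4, 53.8 and 52.7 CPM in single mutants, with 57.7, 60.2 and 57.0 CPM in double mutants. All mutant libraries were below wild type, and the single mutants were below the double mutants. It was 30.4% lower in single mutants (edgeR adjusted p = 0.000242) and 20.8% lower in double mutants (edgeR adjusted p = 0.00795). The level of crygm2d20 was 140, 156 and 132 CPM in wild type, 116, 118 and 112 CPM in single mutants, with 114, 119 and 117 CPM in double mutants. No mutant library reached the wild-type range, and it was 19.1% and 18.0% lower (edgeR adjusted p = 0.00359 and 0.00745). In double mutants both calls ended without wild-type replicate 2 (adjusted p = 0.0543 for crygm2d14 and 0.0502 for crygm2d20). That of crygm2d14 also ended without double-mutant replicate 3 (0.0545), and that of crygm2d20 without double-mutant replicate 1 (0.0577).

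The remaining lower crygm2d rows were near the threshold. In single mutants crygm2d16 differed by -0.32 (edgeR adjusted p = 0.00853) and crygm2d6 by -0.36 (0.0209) on the log2 scale. In double mutants their differences of -0.20 and -0.25 did not pass (adjusted p = 0.0907 and 0.108). They passed for crygm2d16 without wild-type replicate 3 (0.0164) and for crygm2d6 without wild-type replicate 2 (0.0498). The single-mutant call of crygm2d16 rested on wild-type replicate 2 (adjusted p = 0.0619 without it) and on single-mutant replicate 3 (0.0612). For crygm2d6 it was lost without wild-type replicate 1 (0.229), single-mutant replicate 3 (0.113) or double-mutant replicate 3 (0.0502). That call was also lost with the 6 compared libraries alone (0.0511) and with scaling to the summed crystallin counts (0.0523). The rows crygm2d21 and crygm2d3 were called lower in both mutants, with log2 differences from -0.26 to -0.24 and adjusted p from 0.0200 to 0.0434. Leaving out wild-type replicate 1 or 2, single-mutant replicate 2 or 3 or any double-mutant library ended all 4 of these calls (adjusted p = 0.0516 to 0.259). Over the 19 alternatives, the crygm2d21 call was lost in 9 for single and 10 for double mutants. For crygm2d3 these numbers were 12 and 15. Its losses in double mutants included the other scalings, both other filters, DESeq2 and limma-voom.

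One copy moved the other way. The row crygm2d9, which had the lowest mean level of the series, measured 26.5, 21.1 and 19.6 CPM in wild type, 28.5, 31.2 and 32.5 CPM in single mutants, with 26.6, 29.1 and 29.8 CPM in double mutants. The highest wild-type library was just below the lowest double-mutant library. It was 1.37-fold higher in single mutants (log2 0.45, SE 0.11, edgeR adjusted p = 0.00408) and 1.27-fold higher in double mutants (log2 0.34, SE 0.11, edgeR adjusted p = 0.0262). In double mutants the row was no longer called after removal of wild-type replicate 2 (adjusted p = 0.0965), wild-type replicate 3 (0.119), double-mutant replicate 2 (0.0618) or double-mutant replicate 3 (0.0772).

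The copies with the highest CPM did not pass the test with all 9 libraries. The row crygm2d10 was highest, at 278.5, 294.9 and 235.3 CPM in wild type, 229.1, 239.8 and 245.6 CPM in single mutants, with 244.4, 266.1 and 243.6 CPM in double mutants. The mutant libraries overlapped the wild-type range, and the log2 differences were -0.18 and -0.10 (edgeR adjusted p = 0.0859 and 0.362). The row crygm2d13 stood at 216 ± 27.2, 208 ± 3.61 and 211 ± 12.9 CPM, and crygm2d8 at 183 ± 17.5, 163 ± 1.74 and 164 ± 8.65 CPM, with overlapping libraries. Without wild-type replicate 3, crygm2d8 was called lower in single mutants (log2 -0.25, adjusted p = 0.0125) and in double mutants (log2 -0.24, adjusted p = 0.0200). The row crygm2d17 stood at 224 ± 27.3, 240 ± 7.14 and 249 ± 6.50 CPM. It was 1 of 3 copies whose fitted difference was above 0 in both mutants, the others being crygm2d9 and crygm2d11.

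**Figure D4:**
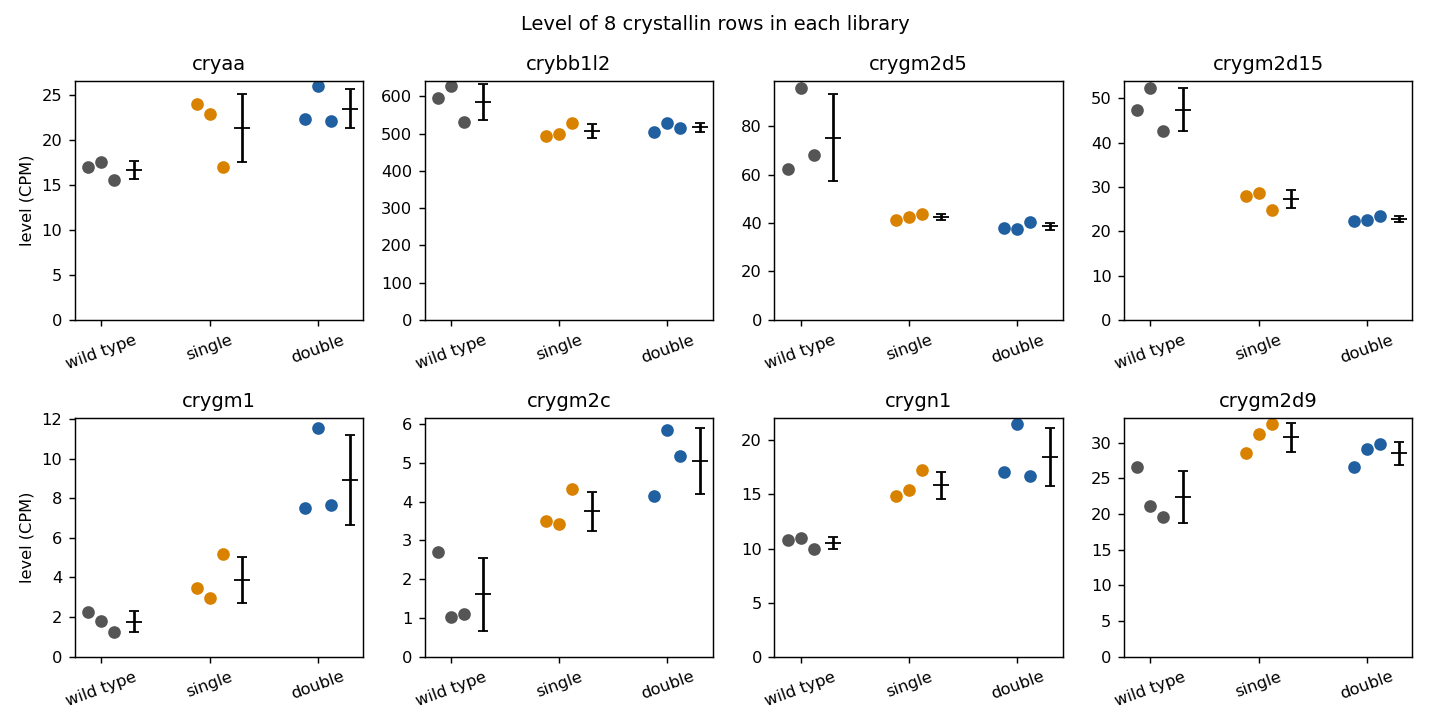
CPM of 8 crystallin rows in each library with the genotype mean and SD (n = 3), each panel starting at 0. In crygm2d15 and crygm2d5 all mutant libraries lay below wild type, and in crygn1, crygm1, crygm2c and crygm2d9 all lay above it.

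Rows of low expression outside the crygm2d series held the largest relative increases. The gamma M row crygm1 had 56, 34 and 27 counts in wild type, 61, 50 and 91 in single mutants, with 127, 208 and 147 in double mutants, or 1.77 ± 0.510, 3.88 ± 1.17 and 8.93 ± 2.29 CPM. The 3 genotypes did not overlap, in the order wild type, single mutant, double mutant. It was 2.18-fold higher in single mutants (log2 1.12, SE 0.28, edgeR adjusted p = 0.00523) and 5.0-fold higher in double mutants (log2 2.32, SE 0.26, edgeR adjusted p = 1.91e-05).

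Between double and single mutants, where 1.67% of all tested genes were called, crygm1 was the 1 crystallin of 46 that changed (2.17%). It was 2.3-fold higher in double mutants (log2 1.20, SE 0.24, edgeR adjusted p = 0.0238), where 0.668% of all tested genes were called higher. All double-mutant libraries lay above the single mutants in 9 of the 46 rows and below them in 2, beside 10.7% and 9.50% of all tested genes. That call was lost without single-mutant replicate 2 (adjusted p = 0.106), double-mutant replicate 2 (0.139) or double-mutant replicate 3 (0.0569). Without single-mutant replicate 1, the library that stood apart, crygm1 was still the 1 crystallin called, while the count over all genes went from 362 to 3860.

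The row crygm2c measured 2.70, 1.01 and 1.10 CPM in wild type, 3.49, 3.44 and 4.34 CPM in single mutants, with 4.15, 5.84 and 5.18 CPM in double mutants. All mutant libraries lay above wild type. It was 2.28-fold higher in single mutants (log2 1.19, SE 0.31, edgeR adjusted p = 0.00722) and 3.07-fold higher in double mutants (log2 1.62, SE 0.30, edgeR adjusted p = 0.00112). The calls of crygm1 and crygm2c against wild type held in all 19 alternatives.

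The gamma N crystallins combine features of the beta and gamma families. The minor row crygn1 measured 10.8, 10.9 and 9.92 CPM in wild type, 14.9, 15.4 and 17.2 CPM in single mutants, with 17.1, 21.5 and 16.7 CPM in double mutants. All mutant libraries were above wild type. The increase was 1.5-fold in single mutants (log2 0.59, SE 0.12, edgeR adjusted p = 0.00125) and 1.75-fold in double mutants (log2 0.81, SE 0.12, edgeR adjusted p = 0.000142), and both calls held in all 19 alternatives. The major row crygn2 stood at 376 ± 25.4, 422 ± 6.33 and 396 ± 22.2 CPM, with log2 differences of 0.16 (edgeR adjusted p = 0.0604) and 0.08 (0.424). That of single mutants passed the test in 9 of the 19 alternatives.

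Lower values were also found in minor gamma M rows. The row crygm2f measured 2.54, 4.10 and 2.25 CPM in wild type, 0.744, 1.24 and 1.77 CPM in single mutants, with 1.90, 1.72 and 1.78 CPM in double mutants. All mutant libraries lay below wild type, by 57.2% in single mutants (log2 -1.23, SE 0.31, edgeR adjusted p = 0.00511), while the double-mutant log2 difference of -0.71 had an adjusted p of 0.0782. In double mutants the row was called without single-mutant replicate 1 (log2 -0.70, adjusted p = 0.0370) and with the 6 compared libraries alone (log2 -0.69, adjusted p = 0.0396). The row crygm7 had 19, 11 and 9 counts in wild type, 5, 4 and 3 in single mutants, with 6, 13 and 15 in double mutants. It was called lower in single mutants (log2 -1.33, SE 0.51, edgeR adjusted p = 0.0478), but the call was lost in 15 of 17 alternatives, leaving out any library except wild-type replicate 3 among them (adjusted p = 0.0544 to 0.187). The row passed the filter level in 2 wild-type, 0 single-mutant and 2 double-mutant libraries, so it was tested only through the genotypes in which it was higher. In double mutants its log2 difference was 0.08. All double-mutant libraries of crygm7 lay above the single mutants, with a log2 difference of 1.41 (SE 0.52) that did not pass the test (edgeR adjusted p = 0.177).

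The other minor gamma rows were not called. The row crygm2e had 3.47, 3.84 and 3.17 CPM in wild type, 4.06, 2.43 and 4.4 CPM in single mutants, with 5.58, 8.79 and 3.76 CPM in double mutants, where the log2 difference of 0.79 (SE 0.29) had an edgeR adjusted p of 0.0508. The row crygm5 stood at 2.06 ± 0.831, 2.52 ± 0.188 and 2.97 ± 0.202 CPM, and crygm2b at 1.23 ± 0.562, 1.23 ± 0.278 and 1.93 ± 0.692 CPM. The gamma MX rows, a further group of fish gamma crystallins, summed to 336 ± 34.4 CPM in wild type, 316 ± 13.7 CPM in single and 336 ± 17.1 CPM in double mutants. Of these, crygmx stood at 157 ± 11, 155 ± 9.64 and 170 ± 12.3 CPM and crygmxl2 at 178 ± 23.5, 161 ± 8.58 and 166 ± 5.04 CPM, with overlapping libraries.

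Most gamma rows lie together in the genome. All 56 names were matched to the gene order of the assembly GRCz12tu, which is not the build of the counts. There, 33 gamma rows formed 1 run, with the 20 crygm2d rows in the middle, 8 gamma rows before them and 5 after. A run allowed short gaps, so other genes may lie between its rows. The crygm2d block, at mean levels of 27.2 to 253 CPM, had median log2 differences of -0.20 in single and -0.16 in double mutants. The 8 rows before it, at 0.0334 to 4.86 CPM, hold crygm1, crygm2c and crygm7. Of the 6 tested there, 2 rose and 1 fell in single mutants, beside 19.5% and 22.6% of all tested genes. In double mutants 2 rose and 0 fell, beside 14.2% and 18.0%. The row that fell in single mutants was crygm7, a call lost in 15 of 17 alternatives. Within the block, crygm2d5 and crygm2d9 follow each other among the crystallin rows and moved in opposite directions.

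**Figure D5:**
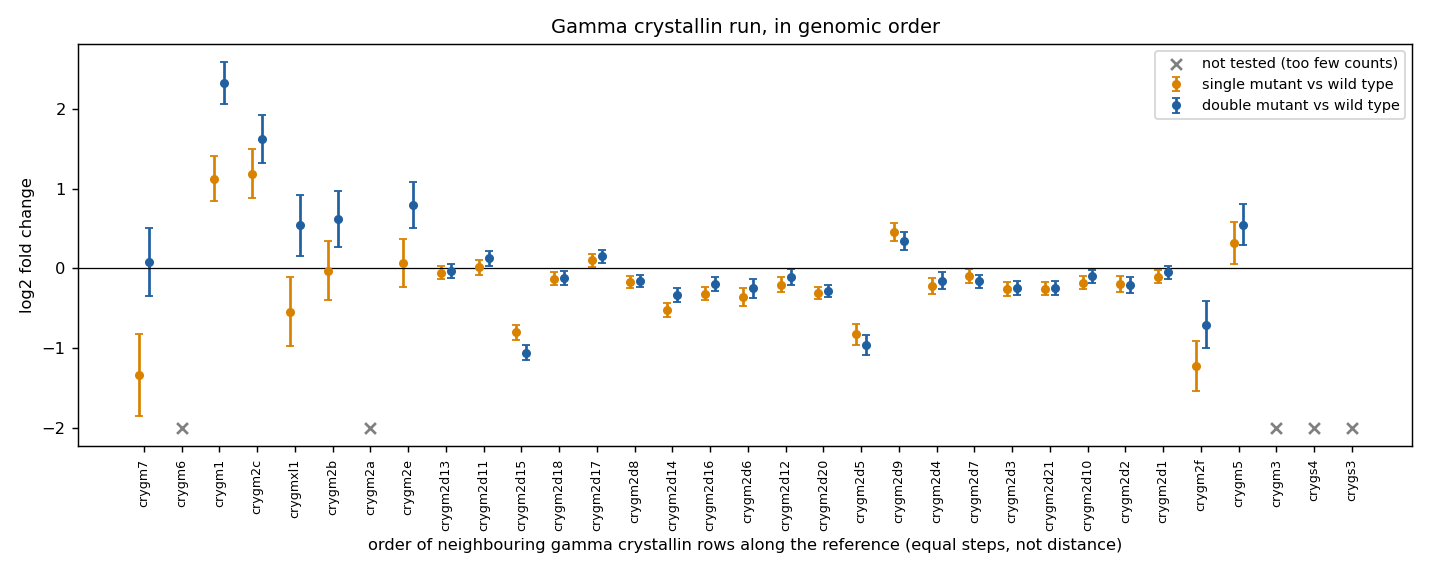
Log2 fold change with SE against wild type of the 33 gamma rows of 1 run, in GRCz12tu gene order. Other genes may lie between them. Single and double mutants are shown, with crosses for rows that were not tested. Most crygm2d rows lay below 0, whereas crygm1 and crygm2c before the block reached 1.12 and 1.19 in single mutants, with 2.32 and 1.62 in double mutants.

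The lists that follow are read against the shares of all tested genes called higher and lower, 19.5% and 22.6% in single and 14.2% and 18.0% in double mutants. Of 21 tested lens fibre membrane and cytoskeleton genes, 4 rose and 0 fell in single mutants (19.5% and 22.6% of all genes). In double mutants 5 rose and 0 fell (14.2% and 18.0% of all genes). How this list differed from the gamma crystallins was not tested. The lens water channel genes mipa and mipb, picked for mention after their values were seen, stood at 60.7 ± 2.92 and 70.7 ± 4.78 CPM in wild type, 63.4 ± 3.0 and 73.9 ± 1.30 CPM in single mutants and 62.6 ± 4.54 and 75.2 ± 8.16 CPM in double mutants, none of them called. Summed over 22 genes, the list ranged from 370 to 439 CPM in wild type, 429 to 478 CPM in single mutants and 418 to 458 CPM in double mutants. The gene bfsp1 of this list was not analysed here.

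Among the fibre genes that rose was dnase1l1l, which encodes the nuclease that clears DNA from fibre cells. Its level was 5.25 ± 0.562 CPM in wild type, 7.59 ± 1.0 CPM in single mutants and 8.57 ± 0.519 CPM in double mutants (edgeR adjusted p = 0.00904 and 0.00181). The receptor gene epha2a stood at 17.4 ± 0.386, 29.9 ± 7.62 and 27.3 ± 1.03 CPM (adjusted p = 0.000590 and 0.00319), and the transport adaptor gene fyco1a at 13.9 ± 0.642, 20.5 ± 3.49 and 18.0 ± 0.719 CPM (0.00142 and 0.0239). The lens membrane gene lim2.4 rose in single mutants, from 44.0 ± 5.45 to 55.7 ± 2.51 CPM (adjusted p = 0.0146). The lens galectin gene grifin rose in double mutants, from 6.96 ± 1.13 to 11.4 ± 2.22 CPM (adjusted p = 0.00283). Several of these genes are also expressed outside the lens.

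Of 13 tested transcription factors of lens development, 2 rose in single mutants and 3 in double mutants, and 0 fell by edgeR. Of all tested genes, 19.5% and 14.2% rose. The list's median log2 difference was -0.09 in single mutants (range -0.81 to 0.30) and 0.11 in double mutants (range -0.40 to 0.43). The eye regulators pax6a and pax6b stood at 30.3 ± 1.17 and 35.8 ± 0.860 CPM in wild type. Single mutants had 36.6 ± 4.02 and 40.9 ± 2.91 CPM. Double mutants had 38.7 ± 2.06 and 48.2 ± 3.52 CPM (edgeR adjusted p against wild type = 0.00862 and 0.00131). Both pax6a and pax6b are also genes of the retina and brain. The Maf family gene mafba rose in both mutants, from 30.6 ± 1.79 to 37.7 ± 1.33 and 36.0 ± 0.562 CPM (adjusted p = 0.00782 and 0.0384).

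Small heat shock proteins, the family to which the alpha crystallins belong, had 8 tested members. Of these, 3 rose and 2 fell in single mutants, and 1 rose and 2 fell in double mutants, where 42.0% and 32.2% of all tested genes were called. The gene hspb11 went from 11.5 ± 0.581 CPM in wild type to 22.8 ± 1.33 and 19.0 ± 2.5 CPM (edgeR adjusted p = 7.64e-06 and 0.000186). The gene hspb8, a partner in chaperone-assisted autophagy, fell from 56.9 ± 0.688 to 46.2 ± 1.16 and 43.6 ± 2.42 CPM (adjusted p = 0.00477 and 0.00125).

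A further list held genes with a crystallin name that the name prefixes of the members did not take. Of its 7 tested rows, 2 were higher and 4 lower in each mutant. Beside this, the same 42.0% and 32.2% of all tested genes were called. Whether the genes of this list are expressed in the lens was not tested. The gene crybg1a rose from 41.9 ± 2.85 to 70.8 ± 7.76 and 56.7 ± 2.19 CPM (edgeR adjusted p = 1.33e-05 and 0.00191). The gene cryl1, for a sugar dehydrogenase, fell from 33.0 ± 2.35 to 23.4 ± 1.51 and 25.4 ± 0.508 CPM (adjusted p = 0.000435 and 0.00429).

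Markers of neighbouring and other tissues were counted against the same background of 42.0% of all tested genes called in single and 32.2% in double mutants. Of 29 tested rod and cone genes, 5 rose and 9 fell in single mutants and 6 rose and 13 fell in double mutants, with summed levels of 3654 to 3897 CPM in wild type, 3754 to 3860 CPM in single and 3677 to 3800 CPM in double mutants. Of 15 genes of other retinal cells, 5 rose in single and 3 in double mutants and 0 fell by edgeR, with summed levels of 333 to 367, 368 to 374 and 356 to 382 CPM. Of 11 epidermal genes, 1 rose and 7 fell in single mutants and 0 rose and 6 fell in double mutants. Their sum was 12288 to 12582 CPM in wild type, 7331 to 9325 CPM in single and 8592 to 10950 CPM in double mutants. None of the genes in these 3 lists had a wild-type mean of 0, the lowest being the cone opsin opn1mw4 at 0.0153 CPM in wild type. Pigment genes (14 tested) had 2 up and 2 down in single and 1 up and 1 down in double mutants, and skeletal muscle genes (16 tested) had 5 up and 1 down and 3 up and 1 down. The part of these tissues in the crystallin values was not tested.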

How the data were processed

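The deposited values are raw counts per gene, whole numbers with a different total in each library. Behind them, per the submitters' processing notes, are the build GRCz11 and the tools cutadapt, STAR, featureCounts and DESeq2. Not given in the sources used here are versions, strandedness and how reads matching several genes were counted, which bears on near-identical gamma crystallin copies. RNA was depleted of ribosomal RNA, per the labels' protocols.

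Columns were matched to samples by name and none was left unused. The columns with the prefix AB in the deposited header were taken as the wild-type libraries. Genes were filtered with filterByExpr by genotype, scaled with TMM factors and tested with edgeR 4.0.16 in R 4.3.3 (quasi-likelihood F test, robust, all 9 libraries in 1 fit, genotype as the only factor, 6 residual degrees of freedom). Benjamini-Hochberg adjustment covered all tested genes. The common biological coefficient of variation was 11.4%. Totals of 16978591 to 24717581 counts per library put 3 counts at 0.121 to 0.178 CPM. The pipeline was also run on simulated counts with the same biological variation for every gene, a simpler setting than these libraries. That run says nothing about the calls reported here. Alternatives with limma 3.58.1, DESeq2 1.42.0, other scalings and filters, a replicate block and each library left out are in the closing section.

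Crystallins named in the text are all alpha members, called rows up to the 12 with the smallest adjusted p, the extremes of fold change in the beta and gamma families and the 3 most abundant per family. Of each other list, up to 4 called genes with the smallest adjusted p could be named. Further rows (crybb1l1, cryba1b, cryba2a, crygm2b, crygm2d10, crygm2d11, crygm2d17, crygm2e, crygm5, crygmx, crygmxl1, crygmxl2, the untested rows, mipa, mipb, opn1mw4) were added after their values were seen. Members and lists were chosen with earlier results of these data known.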

Additional observations from a re-analysis of the deposited data

Results flagged for a closer look

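The difference between double and single mutants in crygm1 stood out because it was tested directly and passed. It was 1.20 on the log2 scale (edgeR adjusted p = 0.0238), with all 3 double-mutant libraries above all 3 single-mutant libraries, in a row of 27 to 208 counts per library. The adjusted p ranged from 0.000639 to 0.139 over 19 alternatives, of which 14 kept the call.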

How the results depend on the processing

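In all, 19 alternatives were tried, 1 of them (scaling to the summed crystallin counts) chosen after seeing the data. Of 1211 values of single crystallins, 1051 kept direction and side of the threshold, 99 lost the call, 20 gained it and 41 changed sign, none of these called. Causes were not tested. Crystallins called in single mutants numbered 10 with the 6 compared libraries alone and 10 to 25 with 1 library left out, where wild-type replicate 3 gave 25. In double mutants the count was 8 to 18 with 1 library left out. Between the mutants it was 0 with the 6 libraries alone and 0 to 1 with 1 left out (0 without replicate 2 of either mutant or double-mutant replicate 3). Over all genes that comparison had 883 calls by DESeq2, 184 with the 6 libraries alone and 108 to 3860 with 1 left out. The alpha median in single mutants was -0.22 with no filter, which adds cryaba, and the beta median ran from -0.036 to 0.12 with 1 library left out.

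Deviations of same-numbered libraries from their genotype means were weakly correlated (-0.0354 to 0.0609), and the main fit did not pair them. These correlations cannot exclude a shared clutch or day, which are not given. The replicate block left 0 crystallins called between the mutants (crygm1, adjusted p = 0.0588) and 15 in single and 11 in double mutants.

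Near 0, cryba4 in single mutants was 0.010 with DESeq2 size factors and by the DESeq2 test, 0.029 with TMM without crystallins or with no filter, 0.030 with a stricter filter, 0.0053 with the 6 libraries alone and 0.033 scaled to crystallins. For crybb1l3 the values were 0.0039 with DESeq2 size factors, 0.0030 by the DESeq2 test and 0.012 by limma-voom. They were 0.022 with TMM without crystallins, with no filter and with a stricter filter, and 0.031 scaled to crystallins. With the 6 libraries alone the sign of crybb1l3 did not change. With 1 library left out, single-mutant values ran from -0.074 to 0.054 (cryba4), -0.13 to 0.16 (crybb1l3), -0.15 to 0.021 (crygm2d13) and -0.098 to 0.43 (cryba1a). Double-mutant values ran from -0.0043 to 0.12 (cryba4), -0.030 to 0.26 (crybb1l3), -0.13 to 0.033 (crygm2d13), -0.42 to 0.14 (cryba1a) and -0.12 to 0.37 (crygm7). Depth limits the 10 untested rows.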
